A study of Mus musculus with 8 samples.

Results

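The replication-dependent histone genes were taken as all non-control probes of the array whose gene name starts with Hist1h, Hist2h, Hist3h or Hist4h. This gave 49 of the 34779 gene names, on 57 of the 55681 non-control probes. RNA from mouse liver had been hybridised to 8 1-colour Agilent arrays, 4 from mice given the adenovirus AdLeXis and 4 from mice given the adenovirus AdGFP. LeXis is a long noncoding RNA of liver that is induced by the oxysterol receptor LXR, and GFP is the fluorescent protein used as the control cargo. All mice were of the bl6 strain, on chow and 12 weeks old, and RNA was isolated on day 6. The treatment text common to all samples names instead a control vector and a short hairpin vector against Raly, an RNA-binding protein, so samples were grouped by the treatment tag and the titles. An adenovirus reaches liver cells of more than 1 kind. Whether the 4 samples of a group are 4 mice is not stated, so a p-value covers the spread of these samples, which may be technical.

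Histones are the proteins around which DNA is wound. H2A, H2B, H3 and H4 form the nucleosome core, and H1 binds the linker between cores. The replication-dependent genes lie in clusters, and their transcripts are made in bulk while DNA is copied. Their mRNAs are the animal mRNAs that lack a poly(A) tail. They end in a conserved stem-loop, which the stem-loop binding protein Slbp holds and which the U7 small nuclear ribonucleoprotein helps to cut. In cells that leave the cell cycle some of these genes also give polyadenylated transcripts. Adult liver is mostly non-dividing. The labels give the labelling only as a standard Agilent protocol and do not state the primer, so how far a probe reads stem-loop-ended or polyadenylated transcripts was not tested.

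The probe sequences show what each measurement can and cannot separate. The coding ends of many H2A genes are alike, and the following 5 probes, given in the sense direction, end in the stop codon and differ from the first at few bases. Capitals mark bases that differ from the Hist1h2ah probe at the aligned position.
Hist1h2ah: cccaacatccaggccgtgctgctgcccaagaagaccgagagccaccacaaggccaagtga
Hist1h2af: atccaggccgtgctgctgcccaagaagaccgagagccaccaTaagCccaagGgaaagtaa
Hist2h2aa2: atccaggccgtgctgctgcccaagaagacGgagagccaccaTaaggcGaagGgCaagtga
Hist1h2ak: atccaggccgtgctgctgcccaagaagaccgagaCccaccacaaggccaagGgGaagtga
Hist1h2an: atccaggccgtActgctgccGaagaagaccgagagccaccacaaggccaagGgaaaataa
Hist1h2af, Hist1h2ak and Hist1h2an each differed from Hist1h2ah at 3 of 54 aligned bases and Hist2h2aa2 at 5 of 54. A further probe that ends in the stop codon, that of Hist2h2ac, differed at 13 of 57 bases in an alignment without gaps, all of them near its 3′ end. The Hist1h2ag probe, which runs past the stop codon, differed at 2 of 42 aligned bases. The value of any of the 5 probes, and of those of Hist2h2ac and Hist1h2ag, may therefore hold transcripts of several H2A genes. By the accessions that the array lists for each probe, 13 of the 45 measured genes had a probe shared by the transcripts of more than 1 gene, and these genes are uncertain as single genes.

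Other probes hold the stem-loop or part of it. The stem-loop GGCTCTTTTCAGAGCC was present without a change in 4 of the 55681 probes of the array, and all 4 belong to histone genes of the set. This sequence was searched because, of stems and loops of 16 bases, it is held by the most probes of the set. With up to 3 substitutions, 20 of the 55681 probes held it whole, 6 of them of the set. The stretches below of 30 bases each, in the sense direction, show these 6. They also show the 2 probes of the set with at least 10 bases of it at a probe end. Capitals mark the stem-loop.
Hist1h3a: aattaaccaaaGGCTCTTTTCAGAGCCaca
Hist1h3i: ataacaaaaGGCTCTTTTCAGAGCCccctc
Hist2h2aa2: taaaaaGGCTCTTTTCAGAGCCacccactg
Hist2h2bb: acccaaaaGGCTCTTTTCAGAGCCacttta
Hist1h3g: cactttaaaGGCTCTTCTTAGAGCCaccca
Hist1h4m: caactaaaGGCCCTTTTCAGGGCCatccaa
Hist1h2ab: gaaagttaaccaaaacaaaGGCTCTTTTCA
Hist1h2ae: CTTTTCAGAGCCattcacttaattcagtaa
Counted from 1 at the 5′ end of the stem-loop, Hist1h3g carries T8C and C10T, and Hist1h4m carries T4C and A13G. The Hist1h2ae probe holds only the last 12 bases of the stem-loop and runs 48 bases past it. The Hist2h2aa2 probe runs 38 bases past it, and the other probes with a whole stem-loop 3 to 6. Where the mRNAs end within these probes was not tested. The letters of a poly(A) signal, AATAAA or ATTAAA, were found on the probe strand in 5 of the 57 histone probes and in 13.7% of all probes of the array. The 5 are probes of Hist1h2ag, Hist1h2be, Hist1h4i, Hist2h2bb and Hist3h2ba. For Hist1h4i and Hist2h2bb it is not the probe by which the gene was measured. Hist3h2ba is among the genes that rose, as given below. In the Hist1h2ag probe the match spans the stop codon, so such a match need not be a signal.

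A gene was measured when a probe was well above background on at least 4 of the 8 arrays, and 45 of the 49 genes (51 probes) were. Of these, 39 were well above background on all 8 arrays. Hist1h1d and Hist2h2ab were not well above background on enough arrays to be tested, and the same holds for Hist1h2aa and Hist3h2bb-ps. Levels below are log2 scaled intensity, which allows a probe to be compared between arrays but not with another probe. A gene passed the test at an adjusted p under 0.05 by limma over all 23915 genes measured, and every adjusted p below is from that fit. The scale factor of the arrays, the 75th percentile of intensity, ran from 220 to 297 in AdGFP and from 381 to 448 in AdLeXis. The share of spots well above background ran from 58.9% to 62.5% in AdGFP and from 62.6% to 67.7% in AdLeXis. The arrays of each group lie in a row of their own on a common slide, so position and group cannot be told apart.

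Of the 45 histone genes, 10 rose in AdLeXis and 0 fell, with a median log2 difference of 0.034. Over all genes measured 8.73% were higher and 8.79% lower, with a median of -0.0022, against 22.2% and 0 of the members. One of the 10, Hist1h2bq, passed the detection filter through its AdLeXis arrays alone, and without it 9 of 44 genes rose (20.5%). Where a gene had to be well above background on all 8 arrays, 7 of 39 rose (17.9%), against 10.2% of all genes tested so. The count of 0 lower genes is from limma. By the same fit 12 of the 45 had an unadjusted p under 0.05 in either direction, as did 7668 of all 23915 genes. Every AdLeXis array was above every AdGFP array in 10 of the 45 genes, against 12.4% of all genes. These are the same 10 that rose, which the test had picked on the same arrays. The reverse pattern was shown by Hist1h2an and Hist1h2be, neither of which passed the test, and by 12.3% of all genes. By histone type, 0 of 5 H1 genes, 2 of 12 H2A genes, 5 of 11 H2B genes, 2 of 8 H3 genes and 1 of 9 H4 genes rose. By cluster, the genes that rose were 6 of 35 in Hist1, 2 of 7 in Hist2, both measured genes of Hist3 and not the Hist4 gene. Differences between types or clusters were not tested. The count of 10 was sensitive to single libraries, and calls fell over the whole array as well. Without AdGFP 2, 3 or 4 it was 6, 6 or 5. These are 13.3%, 13.3% and 11.1% of the members, against 6.28%, 6.56% and 6.77% of all genes. Without AdLeXis 2, 3 or 4 it was 5, 6 or 3. These are 11.4%, 13.6% and 6.82% of the members, against 5.62%, 6.86% and 5.10% of all genes. With each array scaled by its median, the genes called over the whole array turned from 49.8% higher to 30.1% higher, and 7 histone genes rose and 1, Hist1h2be, fell.

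**Figure D1:**
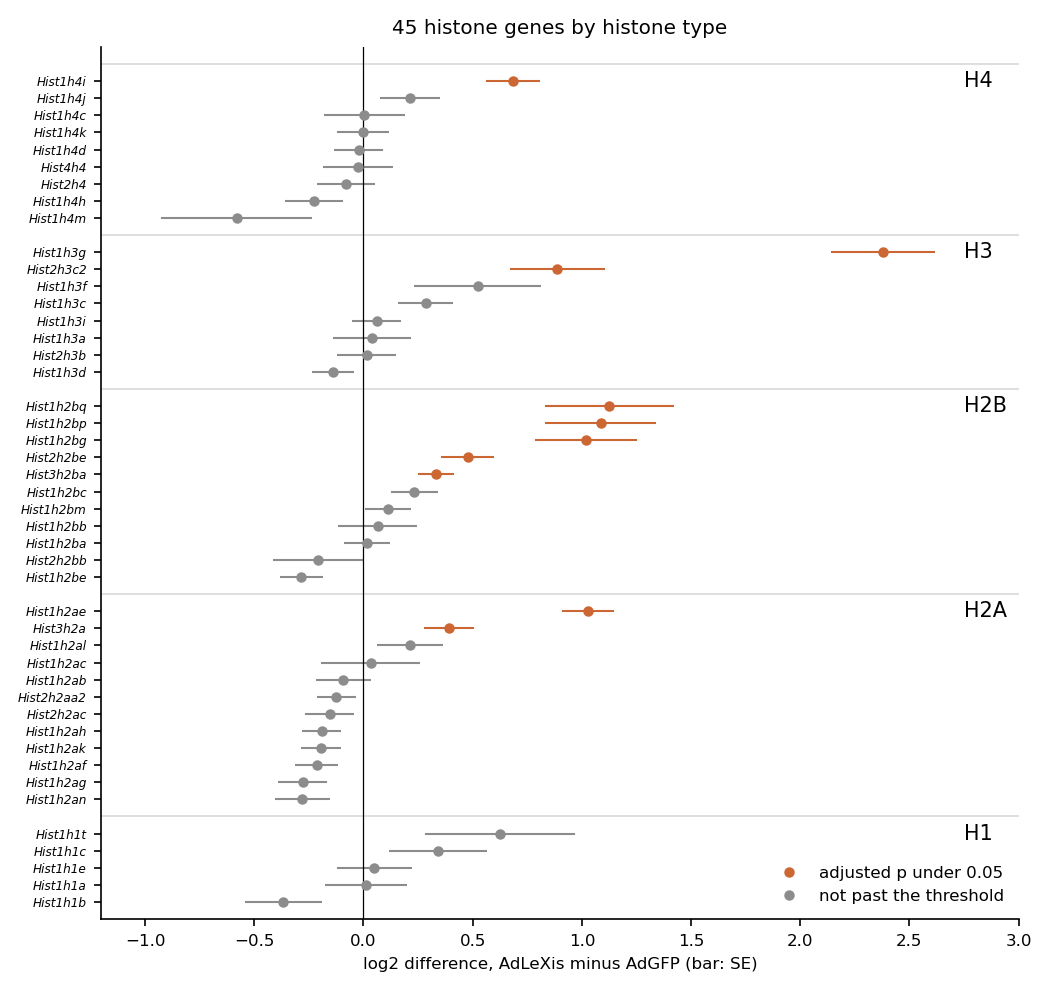
Log2 difference (AdLeXis minus AdGFP, x axis) of the 45 measured histone genes, grouped by histone type. Points are fitted differences and bars their SE. The 10 genes that passed the test are in orange and all lie right of 0, with Hist1h3g at 2.38, and no H1 gene is among them.

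H3 held the gene with the largest difference of the set. Hist1h3g (H3c8 in RefSeq) encodes a core histone H3, and its probe lies at chr13:23627719-23627778 of build mm9, plus strand. Its level was 5.16, 5.17, 4.77 and 4.43 in AdGFP and 7.42, 6.91, 6.94 and 7.77 in AdLeXis. The lowest AdLeXis array (6.91) lay above the highest AdGFP array (5.17). The difference was 2.38 (SE 0.24, 5.20-fold, adjusted p = 0.00106), and the gene passed in all 18 alternatives. Its size was smaller, at 1.25, with normexp background correction. Hist2h3c2 had 8.35, 8.10, 7.68 and 7.31 in AdGFP and 8.67, 8.53, 8.85 and 8.93 in AdLeXis. It rose by 0.89 (SE 0.22, 1.85-fold, adjusted p = 0.0270), with a wider spread among the AdGFP arrays than among the AdLeXis arrays. The call was lost without the detection filter (adjusted p = 0.0542), and without AdGFP 3 (0.0648), AdLeXis 3 (0.0597) or AdLeXis 4 (0.0724).

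The other H3 genes did not pass. Hist1h3f ran from 3.40 to 4.63 in AdGFP and from 4.22 to 4.96 in AdLeXis, and Hist1h3c from 5.96 to 6.17 and from 6.12 to 6.68, so the groups overlapped in both. Their differences were 0.52 (SE 0.29) and 0.28 (SE 0.13). Hist1h3i, Hist1h3a, Hist2h3b and Hist1h3d had differences of 0.060, 0.039, 0.014 and -0.14. The Hist1h3a and Hist1h3i probes hold the whole unchanged stem-loop shown above, and their groups overlapped as well. Hist1h3d, whose coding-region probe is listed for 4 H3 genes, ran from 14.11 to 14.28 in AdGFP and from 13.93 to 14.21 in AdLeXis.

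H2B held 5 of the 10 genes that rose, or 4 of 10 measured H2B genes without Hist1h2bq. The level of Hist1h2bg was 4.53, 4.88, 3.85 and 4.48 in AdGFP and 5.50, 5.58, 5.004 and 5.74 in AdLeXis. Its difference was 1.02 (SE 0.23, 2.03-fold, adjusted p = 0.0214), and AdGFP 3 was the lowest array. The call was lost without AdLeXis 2 (adjusted p = 0.0541) and without AdLeXis 4 (0.0591), and the difference was 0.38 with normexp correction. Hist1h2bp had 3.14, 2.83, 3.32 and 3.06 in AdGFP and 4.79, 3.59, 3.86 and 4.45 in AdLeXis. It rose by 1.09 (SE 0.25, 2.12-fold, adjusted p = 0.0226), with AdLeXis 1 and 4 above AdLeXis 2 and 3. It was well above background on 3 AdGFP arrays and on all 4 AdLeXis arrays. It did not pass without AdGFP 1 (adjusted p = 0.0510), AdGFP 2 (0.0580), AdGFP 4 (0.0511) or AdLeXis 4 (0.0627), nor with normexp correction, where its difference was 0.18.

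Hist1h2bq exceeded background clearly on 0 AdGFP arrays and on all 4 AdLeXis arrays. Its AdGFP level is therefore uncertain, and it had to be higher in AdLeXis to be measured at all. It is the gene among the 10 whose probe is listed for transcripts of more than 1 gene. Measured levels were 2.53, 2.72, 2.10 and 2.11 in AdGFP and 3.88, 3.04, 2.90 and 4.12 in AdLeXis. The measured level was 2.18-fold higher in AdLeXis (adjusted p = 0.0341), in a test that the filter allowed only through the AdLeXis arrays. No lower bound could be set apart from this ratio. Raising each AdGFP value to the lowest signal well above background on its array left the AdGFP mean at 2.36. As in Hist1h2bp, AdLeXis 1 and 4 were above AdLeXis 2 and 3. The call was lost with quantile scaling (adjusted p = 0.0704), with normexp correction (0.630, difference 0.059) and without the detection filter (0.0646). It was also lost without AdGFP 1 (0.0629), AdGFP 3 (0.0789) or AdGFP 4 (0.0787), and the gene could not be tested without an AdLeXis array or where all 8 arrays must be above background.

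The other H2B genes that rose lie outside Hist1 and moved less. Hist2h2be had 6.09, 5.92, 5.54 and 5.79 in AdGFP and 6.44, 6.26, 6.28 and 6.28 in AdLeXis, a difference of 0.48 (SE 0.12, 1.39-fold, adjusted p = 0.0320). Hist3h2ba had 5.22, 5.19, 5.34 and 5.24 in AdGFP and 5.49, 5.58, 5.54 and 5.71 in AdLeXis, a difference of 0.33 (SE 0.081, 1.26-fold, adjusted p = 0.0265). The groups did not overlap in either gene. Each of these calls was lost in 10 of 18 alternatives, Hist2h2be without any array but AdGFP 1 (adjusted p from 0.0543 to 0.0703) and Hist3h2ba without AdGFP 1, 2 or 4 or AdLeXis 2 or 4 (0.0575 to 0.0728). With normexp correction the differences were 0.20 and 0.094, neither past the threshold.

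Among the other H2B genes, Hist1h2be went the other way. It had 6.02, 5.97, 6.04 and 6.03 in AdGFP and 5.58, 5.60, 5.91 and 5.84 in AdLeXis, with every AdLeXis array lower, and its difference of -0.28 did not pass (adjusted p = 0.0803). Hist1h2bc, Hist1h2bm, Hist1h2bb, Hist1h2ba and Hist2h2bb had differences of 0.23, 0.11, 0.065, 0.017 and -0.21, and the groups overlapped in all 5. Hist1h2ba is known as a testis histone H2B. Its coding-region probe ran from 13.30 to 13.39 in AdGFP and from 13.17 to 13.60 in AdLeXis, and how much of that signal comes from other H2B transcripts was not tested.

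**Figure D2:**
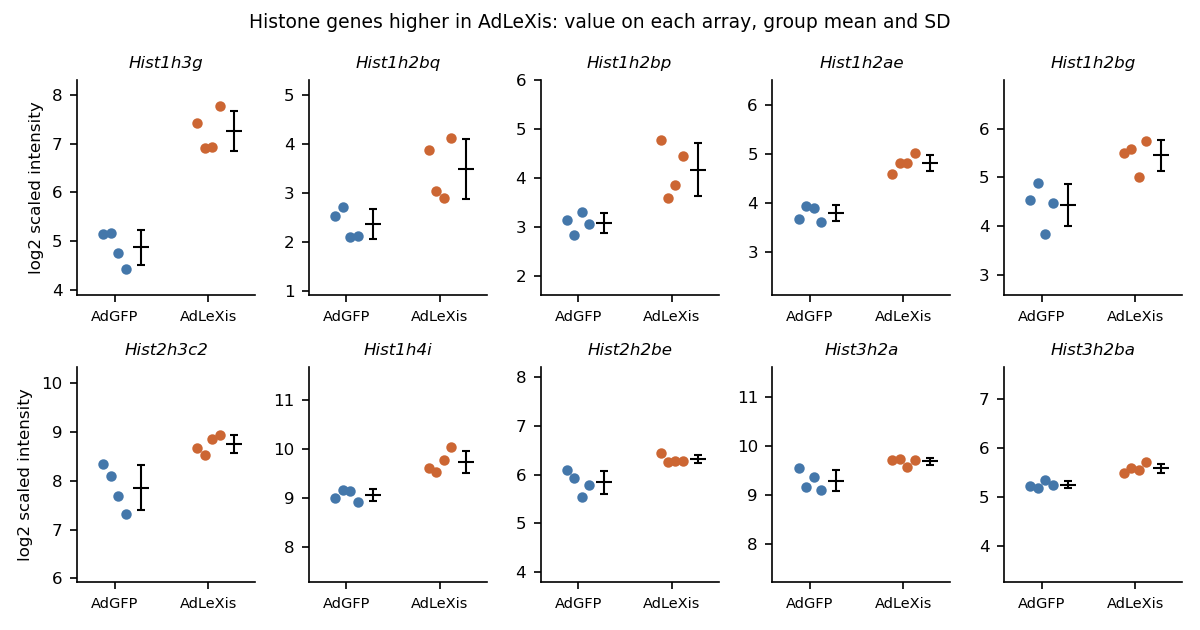
Level (log2 scaled intensity, y axis) of the 10 histone genes that rose, on each of the 4 AdGFP (blue) and 4 AdLeXis (orange) arrays, with the group mean and SD in black. Every panel spans the same number of log2 units. The groups do not overlap in any panel, and the gap is widest for Hist1h3g.

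In H2A the 2 genes that rose were Hist1h2ae and Hist3h2a. Hist1h2ae had 3.67, 3.94, 3.90 and 3.61 in AdGFP and 4.59, 4.81, 4.82 and 5.01 in AdLeXis. Its spread within groups was small, and the difference was 1.03 (SE 0.12, 2.04-fold, adjusted p = 0.00158). It was well above background on 2 AdGFP arrays and on all 4 AdLeXis arrays, so its AdGFP level is uncertain. The gene passed in all 17 alternatives that tested it, with a smaller difference of 0.32 under normexp correction. It was not tested where all 8 arrays must be above background. Hist3h2a had 9.55, 9.15, 9.37 and 9.09 in AdGFP and 9.72, 9.73, 9.58 and 9.71 in AdLeXis. AdGFP 1 lay just below the lowest AdLeXis array, and the difference was 0.39 (SE 0.11, 1.31-fold, adjusted p = 0.0484). This call was lost in 11 of 18 alternatives, among them without any array but AdGFP 1 (adjusted p from 0.0643 to 0.114), while normexp correction gave 0.71.

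The 7 H2A genes with a mean level over 15, 5 of which have the coding-end probes printed above, had differences from -0.28 to -0.12, and none passed. Hist1h2ag had 15.57, 15.51, 15.48 and 15.59 in AdGFP and 15.49, 15.03, 15.12 and 15.37 in AdLeXis, a difference of -0.28 (SE 0.11). Hist1h2an had 15.16, 15.14, 15.19 and 15.14 in AdGFP and 15.12, 14.62, 14.69 and 15.07 in AdLeXis, also -0.28 (SE 0.13). In both, AdLeXis 2 and 3 were lower than AdLeXis 1 and 4. Hist1h2af, Hist1h2ak, Hist1h2ah, Hist2h2ac and Hist2h2aa2 had -0.21, -0.19, -0.19, -0.15 and -0.12, and Hist1h2af, Hist2h2ac and Hist2h2aa2 each turned positive in at least 1 alternative. Over all 879 genes with a mean level over 15, 24.0% were lower and 1.14% higher, with a median of -0.14, and the 7 H2A genes had a median of -0.19. The remaining H2A genes were Hist1h2al, a pseudogene in RefSeq, with 0.21, Hist1h2ac with 0.034 and Hist1h2ab with -0.092.

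A second probe for Hist2h2aa2, the one with the whole stem-loop and 38 bases past it, gave another value than the coding-end probe. It is listed for Hist2h2aa2 and the twin gene H2ac18. It had 13.12, 13.28, 13.45 and 13.21 in AdGFP and 12.87, 12.36, 13.02 and 12.65 in AdLeXis, so all AdLeXis arrays were below all AdGFP arrays. In a fit over all 34450 measured probes it fell by 0.54 (SE 0.15, limma adjusted p = 0.0482), the 1 of 51 histone probes that fell, against 7.17% of all probes. Of the 51 probes 9 rose, against 7.69% of all. The call was lost in 11 alternatives, among them quantile scaling (adjusted p = 0.0563) and the removal of any array but AdLeXis 3 (0.0547 to 0.114).

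H4 had 1 gene that rose. Hist1h4i had 9.00, 9.17, 9.15 and 8.91 in AdGFP and 9.62, 9.54, 9.77 and 10.04 in AdLeXis, a difference of 0.68 (SE 0.13, 1.61-fold, adjusted p = 0.00902). The probe that gave this value is listed for no RefSeq transcript. The other probes of the gene are listed for it (H4c9 in RefSeq) and gave 0.24 and 0.16, with overlapping groups. The mean of the 3 probes, 0.36, did not pass (adjusted p = 0.0721). Whether the first probe reads the H4 mRNA was not tested. Hist1h4m, whose stem-loop differs at 2 bases, had 5.59, 6.32, 6.28 and 5.19 in AdGFP and 5.94, 4.53, 5.14 and 5.43 in AdLeXis. Its difference of -0.58 (SE 0.35) did not pass, and the groups overlapped. Hist1h4h had 6.09, 5.97, 5.90 and 6.32 in AdGFP and 5.92, 5.53, 5.96 and 5.96 in AdLeXis, a difference of -0.23 (SE 0.13). Hist1h4j had 7.12, 7.15, 7.29 and 7.29 in AdGFP and 7.68, 7.13, 7.25 and 7.62 in AdLeXis, a difference of 0.21 (SE 0.14). Neither passed. Hist1h4c, Hist1h4k, Hist1h4d, Hist4h4 and Hist2h4 had differences from -0.080 to 0.0042.

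No linker histone H1 gene passed. Hist1h1t, known as a testis H1, had 4.71, 5.12, 6.05 and 5.49 in AdGFP and 6.47, 5.82, 6.34 and 5.24 in AdLeXis, a difference of 0.63 (SE 0.34). Hist1h1c, known as the H1.2 linker histone, had 12.50, 12.40, 11.88 and 11.54 in AdGFP and 12.08, 12.45, 12.56 and 12.59 in AdLeXis, a difference of 0.34 (SE 0.22). Hist1h1b had 10.33, 10.03, 10.02 and 10.21 in AdGFP and 10.13, 9.37, 9.60 and 10.03 in AdLeXis, a difference of -0.37 (SE 0.18). In each of these 3 genes the groups overlapped. Hist1h1e had 10.74, 10.52, 10.66 and 10.75 in AdGFP and 10.98, 10.18, 10.77 and 10.91 in AdLeXis, a difference of 0.049 (SE 0.17) whose sign changed in 4 alternatives. Hist1h1a had a difference of 0.013.

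Of the 4 genes not tested, Hist1h2aa, known as a testis H2A, was well above background on 0 AdGFP and 3 AdLeXis arrays. Its measured level was 1.56-fold higher in AdLeXis. This ratio has no test and rests on AdGFP values near background. Hist3h2bb-ps, a pseudogene, was so on 0 AdGFP and 2 AdLeXis arrays. Its measured levels were 2.89, 2.52, 3.22 and 2.52 in AdGFP and 2.77, 5.003, 3.27 and 1.91 in AdLeXis, so AdLeXis 2 stood apart and AdLeXis 4 was below every AdGFP array. Without AdLeXis 2 the AdLeXis mean was 2.65, below the AdGFP mean of 2.79.

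The genes that rose shared a property of their probes. All 10 had a probe with 35% to 45% G and C bases, and 10 of the 23 genes with a probe under 50% rose, with a median of 0.34. Of the 22 genes with a probe at 50% or more, 0 rose and 0 fell, with a median of -0.053. Over the whole array, 9.22% of the 18806 genes with a probe under 50% were higher, and 6.93% of the 5109 others. Base composition moves here with sharing: the median share of G and C bases was 60% in probes listed for several genes and 45% in the other probes. Of the 13 genes with a probe shared by transcripts of several genes 1 rose. Of 7 with a probe listed for a single gene that holds the stem-loop or part of it 2 rose, Hist1h3g and Hist1h2ae. Of 22 with a probe listed for a single gene and no stem-loop 5 rose. For 3 genes the probe was matched to no RefSeq gene by its listed accessions. The array lists no RefSeq transcript for the probes of Hist1h4i and Hist2h3c2, which rose. For that of Hist1h2al, which did not pass, it lists 2 transcripts, neither matched to a gene. By signal, 5 of 15 genes with a mean level under 6 rose, where 6.54% of all genes did, and 3 of 9 with a level from 6 to 9, where 9.91% did. From 9 to 12, 2 of 6 rose (11.7% of all genes), from 12 to 15, 0 of 8 (8.56% of all genes), and over 15, 0 of 7 (1.14%). The part of base composition, of shared sequence and of signal in the result was not tested separately.

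**Figure D3:**
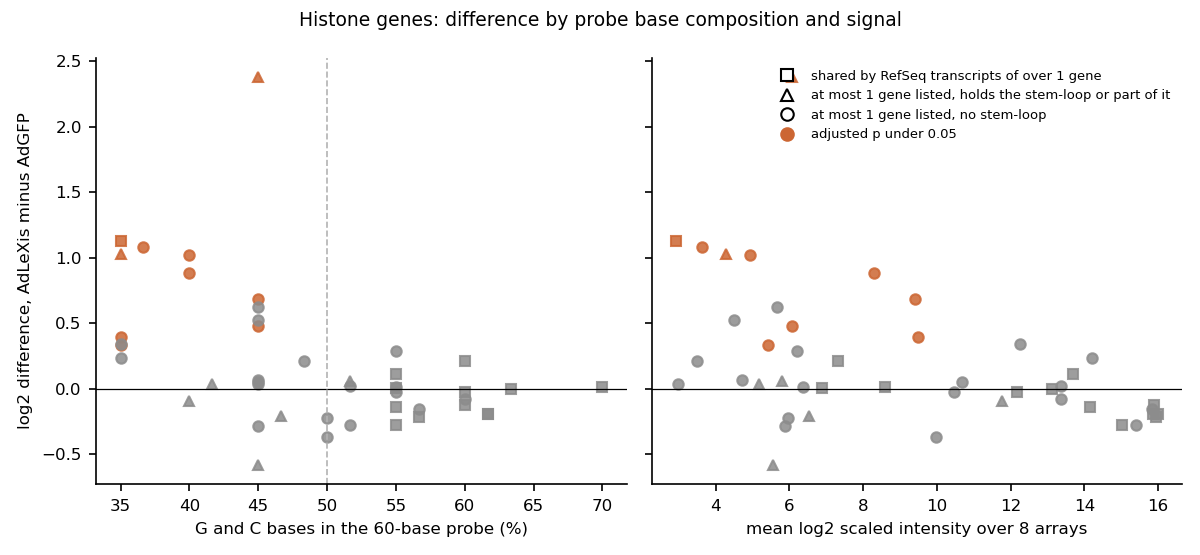
Log2 difference (y axis) of the 45 histone genes against the share of G and C bases in the probe (left) and the mean level over 8 arrays (right). Squares are probes listed for several genes, triangles probes with the stem-loop or part of it, circles the rest, and orange marks genes that passed the test. All 10 orange points lie left of the dashed line at 50%.

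Genes that rose were in part neighbours. Hist1h2ae and Hist1h2bg are read away from each other, as H2A and H2B genes of the clusters often are, with 1274 bases between their probes (chr13:23662489-23662548, minus strand, and chr13:23663823-23663882, plus strand, build mm9). They rose by 1.03 and 1.02. Their promoter windows, each 250 bases before to 50 bases after the start in RefSeq, share 279 bases. Hist3h2ba and Hist3h2a, the measured genes of their cluster, have 5930 bases between their probes and rose by 0.33 and 0.39. The probes of Hist1h2bp and Hist1h2bq lie 48160 bases apart, and those of Hist2h2be and Hist2h3c2 15081 bases. The Hist1h2bq probe is on the plus strand, but the promoter window of its RefSeq match is on the minus strand. The place of that gene is therefore uncertain. Close neighbours also differed. Hist1h2af and Hist1h4h, whose probes lie 1546 and 4722 bases from that of Hist1h3g, had -0.21 and -0.23. Hist2h2ac, whose probe lies 2455 bases from that of Hist2h2be, had -0.15.

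The shared promoter of Hist1h2bg and Hist1h2ae and that of Hist1h3g are given because these 3 genes had the smallest p of the H2B, H2A and H3 types. Both windows are RefSeq sequence of build GRCm38.p6, plus strand, at chr13:23571150-23571449 and chr13:23535168-23535467. Capitals mark 3 motifs, found on either strand: the CCAAT box, the TATAAA box and the octamer ATTTGCAT, which is known from H2B promoters.
Hist1h2bg: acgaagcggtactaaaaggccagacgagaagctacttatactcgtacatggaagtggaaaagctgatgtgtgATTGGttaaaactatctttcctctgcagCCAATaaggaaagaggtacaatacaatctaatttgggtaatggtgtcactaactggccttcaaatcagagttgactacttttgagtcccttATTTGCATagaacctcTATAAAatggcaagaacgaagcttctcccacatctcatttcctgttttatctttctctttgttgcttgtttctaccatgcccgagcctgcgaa
Hist1h3g: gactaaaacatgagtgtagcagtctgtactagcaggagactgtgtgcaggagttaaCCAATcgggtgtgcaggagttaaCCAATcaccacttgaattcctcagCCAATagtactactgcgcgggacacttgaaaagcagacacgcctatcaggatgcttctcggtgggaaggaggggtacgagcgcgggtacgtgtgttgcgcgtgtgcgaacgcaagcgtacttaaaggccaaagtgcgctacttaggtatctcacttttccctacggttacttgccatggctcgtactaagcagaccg
For 42 histone genes a promoter was found, in 43 windows. CCAAT was in 37 of the 43, against 37.4% of all 32851 windows, and TATAAA in 25, against 13.6%. ATTTGCAT was in 13, against 1.74%, in 7 of 13 H2A and 6 of 10 H2B windows and in no window of H1, H3 or H4 genes. Among 9 windows of genes that rose, 8 held the first motif, 5 the second and 3 the octamer, and among 31 of measured genes that did not pass, 26, 17 and 9. Also searched were TTTGGCGC or TTTCGCGC, in 5 of the 43 (0.813% of all windows), and AAACACA, in 9 (7.18%). The former was in 1 of the 9 windows and 4 of the 31, and AAACACA in 0 and 7. Of 6 H1 windows 5 held AAACACA. A match is a description of the letters and not a binding site.

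The genes that act on histone genes and their mRNAs were read from the same fit. Of 8 measured genes of histone transcription 4 rose and 1 fell, with a median of 0.28, beside 8.73% higher and 8.79% lower over all genes. Ccne1 encodes cyclin E1, which with Cdk2 activates the histone gene coactivator Npat. It had 9.33, 9.22, 9.46 and 9.26 in AdGFP and 10.79, 11.03, 11.05 and 11.51 in AdLeXis, a difference of 1.78 (SE 0.15, adjusted p = 0.00051). Cdk2 rose by 0.75 (adjusted p = 0.00162) and the S phase factor E2f1 by 0.55 (adjusted p = 0.0189). Casp8ap2, the FLASH protein of the histone locus body, rose by 0.36 (adjusted p = 0.0332) and lost the call in 12 alternatives. E2f2 fell by 0.40 (adjusted p = 0.0438). Npat and Ccne2 were above background on too few arrays to be measured. Without AdGFP 1 or without AdLeXis 4, 2 genes of the list rose. The list had 0 lower genes when any array but AdLeXis 1 was left out.

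Of 13 genes of histone mRNA processing 2 rose and 1 fell, with a median of 0.11, counts near the 8.73% higher and 8.79% lower of all genes. Slbp had 8.48, 8.40, 8.57 and 8.68 in AdGFP and 8.88, 9.10, 9.18 and 9.17 in AdLeXis, so the groups did not overlap. Its difference was 0.55 (SE 0.10, adjusted p = 0.00932). Zfp473, which bridges Slbp to the U7 particle, had 3.72, 4.08, 3.99 and 4.09 in AdGFP and 5.64, 5.09, 5.25 and 5.75 in AdLeXis, a difference of 1.47 (SE 0.17, adjusted p = 0.00144). Lsm11, a protein of the U7 particle, had 6.11, 6.22, 6.26 and 6.44 in AdGFP and 5.55, 5.69, 5.83 and 5.76 in AdLeXis, and fell by 0.55 (SE 0.10, adjusted p = 0.00917). With normexp correction Slbp had 0.33, Zfp473 0.42 and Lsm11 -0.31, all past the threshold. The partner Lsm10 and the cutting enzyme Cpsf3 had differences of 0.089 and -0.031 and did not pass.

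Of 16 histone chaperones and carriers 4 rose and 2 fell, with a median of 0.23, where 8.73% of all genes were higher and 8.79% lower. Chaf1b and Chaf1a, subunits of the assembly factor that deposits H3 and H4 behind the fork, rose by 1.09 (SE 0.12, adjusted p = 0.00131) and 0.77 (SE 0.11, adjusted p = 0.00339). Hjurp, which loads the centromeric histone, rose by 0.41 (adjusted p = 0.0397), a call lost in 11 of 18 alternatives, and Asf1a by 0.51 (adjusted p = 0.0426), while Daxx fell by 0.33 and Ipo4 by 0.30. The count of 4 was 2 without AdGFP 1, 2 or 3 or AdLeXis 2, 3 or 4. The 2 lower genes became 1 or 0 without any array but AdLeXis 1. Of 13 variant histones, which are made outside S phase as well, 5 rose and 0 fell, with a median of 0.32. H1fx had 2.83, 2.69, 3.51 and 2.16 in AdGFP and 6.00, 5.29, 6.10 and 6.82 in AdLeXis, and was well above background on 1 AdGFP array. It rose by 3.25 (SE 0.36, adjusted p = 0.00136), and by 0.96 with normexp correction. H3f3a rose by 0.77, H2afx by 0.46, H2afv by 0.44 and H1f0 by 0.41. The count of 5 was 3 without AdGFP 1, AdGFP 4 or AdLeXis 2, 3 or 4, and 2 without AdGFP 2.

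Of 20 genes of DNA copying and nucleotide supply in S phase 16 rose and 0 fell, with a median of 0.58. Over all genes 8.73% were higher and 8.79% lower. Mcm6, a helicase subunit, rose by 1.45 (SE 0.12), Rrm1, of ribonucleotide reductase, by 1.33 (SE 0.11) and the primase subunit Prim1 by 1.27 (SE 0.088), with adjusted p from 0.00032 to 0.00051. The count of 16 was 8 without AdGFP 1, 10 without AdGFP 3, 9 without AdGFP 4, 9 without AdLeXis 2 and 8 without AdLeXis 4. In the same order, the share of all genes that rose was 6.03%, 6.56%, 6.77%, 5.62% and 5.10%. The uracil glycosylase Ung had -0.71 (adjusted p = 0.0506), and the list had 1 lower gene without AdLeXis 2 and without AdLeXis 3. The members of these lists are shown with the histone genes in the plot of partner lists.

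**Figure D4:**
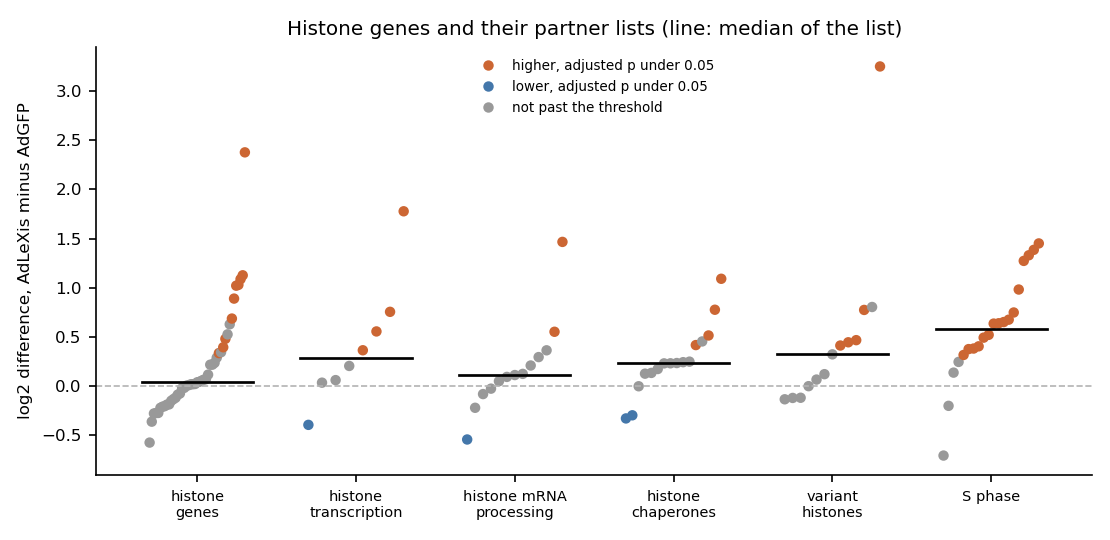
Log2 difference (AdLeXis minus AdGFP, y axis) of each measured gene of the histone set and of 5 partner lists, ordered within a list by its value. Orange and blue mark genes that passed the test as higher and lower, black lines are list medians, and the dashed line is the median of all genes. The S phase list has the highest median, 0.58, and the histone genes the lowest, 0.034.

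Cell type markers were read for the same arrays, where 8.73% of all genes were higher and 8.79% lower. The 7 measured hepatocyte markers, among them Alb and Apoa1, had mean levels from 16.7 to 18.8, where all genes ran from 1.60 to 18.8. All 7 were lower in AdLeXis, with a median of -0.57. Of all genes with a mean level over 15, 24.0% were lower and 1.14% higher, with a median of -0.14. All 8 markers of T cells and NK cells were lower, with a median of -1.09, and their summed scaled intensity ran from 8814 to 9617 in AdGFP and from 3927 to 4785 in AdLeXis. Of 8 Kupffer cell markers 4 were lower, with sums from 58329 to 71631 and from 36996 to 44703. Mpeg1 was lower by 0.90, while Vsig4 and Clec4f had differences of 0.50 and 0.095 and did not pass. No B cell (4 genes), erythroid (5) or neutrophil (5) marker passed. The B cell sums ran from 440 to 516 and from 321 to 570, the erythroid sums from 6379 to 8135 and from 3602 to 6991, and the neutrophil sums from 2533 to 3710 and from 2117 to 4019. The erythroid gene Rhag was well above background on 0 arrays and Gata1 on 1. Of 5 proliferation markers 4 rose, Mki67 by 0.52, and their sum ran from 4018 to 4946 in AdGFP and from 6917 to 8886 in AdLeXis. The part of these cell types in the histone result was not tested. In whole tissue, fewer cells of a type and less RNA per cell cannot be told apart.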

How the data were processed

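The measurements are spot brightness from the scanner, deposited as intensity on a linear scale. Per the file headers, Agilent Feature Extraction 11.5.1.1 made them (11.5.1.11 per the submitters' processing notes) and subtracted background and detrended each array without scaling arrays to each other. The series' deposited value table repeats these intensity values, uncentred, with column medians from 12.7 to 27.7. Flags for background and outlier spots were used as deposited, and no spot was saturated. Outlier spots, 127 to 256 per array, and control spots were left out.

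The log2 of the processed intensity was reduced by each array's 75th percentile, and the mean over arrays was added back. Spots of a probe were averaged. Kept probes were well above background on 4 or more arrays, with at least 2 usable arrays in each group. A gene was its kept probe of highest mean. Groups were compared with limma 3.58.1 in R 4.3.3 (lmFit, eBayes, two-sided) with Benjamini-Hochberg adjustment over 23915 genes. The number of arrays limits the precision. The fit was tested on simulated data.

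Probe coordinates are of build mm9, as deposited. Histone names are those of the files, and 52 of 57 probes were matched to RefSeq (GRCm38.p6) by accession and 5 by symbol. Per-array values are given for the 4 genes of smallest p in each histone type and for genes not above background in all of 1 group, and partner genes are named as the 3 of smallest p in each list, plus Slbp, Npat and Casp8ap2. Further names were chosen after their values were seen. The members and lists were chosen with earlier results of these data known.

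Replicate numbers follow the titles, whereas file names number the same samples differently. The title numbers did not pair the samples: deviations of same-numbered samples correlated at 0.013, 0.066, 0.12 and 0.0011. Alternatives covered scaling, background correction, the detection filter, probe choice, variance model, replicate block, the value table and each array left out.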

Additional observations from a re-analysis of the deposited data

Results flagged for a closer look

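Of 122 groups of 4 arrays checked, 6 (4.92%) held a single array apart from the other three by Dixon's criterion, close to the share that chance gives at a 95% critical value. For Hist3h2a, AdLeXis 3 (9.58) lay below the others (9.71 to 9.73), which fall above every AdGFP array as well. For Hist2h2be, AdLeXis 1 (6.44) lay above the others (6.26 to 6.28). Hist1h3f had AdGFP 1 (3.40) below 4.44 to 4.63 and AdLeXis 2 (4.22) below 4.91 to 4.96. Hist1h3i had AdGFP 4 (5.97) above 5.69 to 5.73, and Hist1h4h had AdLeXis 2 (5.53) below 5.92 to 5.96. AdLeXis 2 is the low array in both Hist1h3f and Hist1h4h.

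A signal also appeared in genes outside the test. Hist1h2aa was well above background on 3 AdLeXis and 0 AdGFP arrays, and Hist3h2bb-ps on 2 AdLeXis and 0 AdGFP arrays. Neither difference was tested.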

How the results depend on the processing

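The 10 genes that rose kept a positive difference in every alternative that tested them, and Hist1h3g and Hist1h2ae also kept the call. The median over the histone genes ran from -0.052 to 0.10 and so had either sign. The count of 10 higher genes was 5 without the detection filter and 6 with the replicate block, and from 3 to 7 when each array was left out. The block ended the calls of Hist1h2bq, Hist2h3c2, Hist3h2a and Hist3h2ba. Its 0 lower genes became 1 with median scaling, normexp correction and every kept probe on its own, and stayed 0 when each array was left out. Over all genes 4188 passed, and 2489 to 4109 with an array left out. Of histone probes the 9 higher became 5 with median scaling, 3 without the filter, 5 with the block and 3 to 7 with an array left out, and the 1 lower became 0 with quantile scaling, cyclic loess, no filter and the block, 2 with normexp and 0 to 1 with an array left out. With median scaling the higher counts were 2 for transcription, 2 for chaperones, 2 for variants and 8 for S phase, with 1 S phase gene lower. Without the filter they were 2 for chaperones, 3 for variants and 10 for S phase, with 0 lower for transcription and for chaperones. With the replicate block they were 2 for transcription, 2 for chaperones and 3 for variants, with 0 lower for transcription and for chaperones. Normexp left 0 lower for transcription, and the all-array filter and the variance trend each gave 1 lower for S phase. With an array left out, transcription had 2 to 4 higher and 0 to 1 lower, chaperones 2 to 5 and 0 to 2, variants 2 to 5 higher, and S phase 8 to 14 and 0 to 1. Hist1h1e was -0.034 with median scaling, -0.017 with normexp, and from -0.040 to 0.23 with an array left out, negative without AdLeXis 1 (-0.040) and without AdLeXis 4 (-0.018). The cause of these shifts was not tested, beyond fewer samples where an array was left out and more tests without the filter. The block rests on numbers that do not pair the samples. Probes near background bound what can be seen: 6 of the 45 genes were below it on some array.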
